A study of Mus musculus with 11 samples.

Results

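The genes described here are 10 markers of the intestinal stem cell and of the feedback circuit of Wnt signalling around it: Lgr5, Olfm4, Ascl2, Smoc2, Axin2, Rnf43, Znrf3, Lgr4, Tnfrsf19 and Prom1. They were chosen by name, as commonly used markers, with earlier results of these data known. All 10 were found among the 37310 gene identifiers of the deposited tables, and all 10 passed the filter on low counts that left 14172 genes for testing. Their levels were followed in 11 RNA sequencing libraries of mouse intestinal organoids, by passage and by animal.

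Intestinal stem cells lie at the base of the crypts, between Paneth cells, and divide in response to Wnt ligands. R-spondins amplify this signal: they bind the receptors LGR4 and LGR5 and thereby remove the membrane ubiquitin ligases RNF43 and ZNRF3, which otherwise take the Frizzled receptors off the cell surface. Stabilised beta-catenin then acts with TCF/LEF factors on target genes, among them Lgr5, Ascl2, Axin2, Rnf43, Znrf3 and Tnfrsf19, several of which feed back on the pathway. Olfm4 and Smoc2 are further markers of crypt base cells, and Prom1 marks stem cells together with transit-amplifying cells of the crypt. In organoids these genes are used to follow the stem cell compartment, which sustains the culture through repeated passaging.

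The cultures came from small intestinal epithelium of 2 animals, mouse_283 and mouse_285, and were embedded in Matrigel under IntestiCult medium and passaged every 7 days. All carried the genotype Lgr5-EGFP-IRES-creERT2, early and late passages alike, and no other allele or agent is given. As background, this cassette sits in the Lgr5 gene itself, so that the Lgr5 promoter drives a fluorescent protein and an inducible recombinase, and the reporter allele does not make the LGR5 protein. The labels do not state whether 1 or both alleles carried it, and the Lgr5 counts do not separate the alleles. Early libraries were from passages 2, 3 and 4 of mouse_283 and from passages 2 and 4 of mouse_285 (n = 5). The late group held passages 11, 12 and 13 of each animal (n = 6). The series also concerns donor ages of 4 and 24 months, but no label ties an age to an animal, so animals were compared only as animals. Nothing says whether the passages of an animal were separate cultures, so the p-values measure only the spread between these libraries.

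Gene reads per library ran from 15114132 to 28949911, which puts 3 counts at 0.0979 to 0.187 CPM (read counts scaled to the TMM-normalised library size), a limit that covers counting error only. In passages 3 and 4 of mouse_283, genes richer in GC were read more: the slope of log2 expression on GC content was 0.980 and 0.785 per 10 percentage points, while that of the 9 remaining libraries lay between -0.407 and 0.199. The shares of mitochondrial reads in passages 3 and 4 of mouse_283 were 1.05% and 2.32%, with passage 4 of mouse_285 at 2.44% and the remaining 8 libraries at 3.32% to 6.04%. The stage difference of each marker is therefore also given without both libraries, in a fit on the 9 that remain. The epithelial markers Epcam, Cdh1, Krt8, Krt18, Krt20, Cdx1 and Cdx2 summed to 5410 to 11486 CPM in every library, while Ptprc, found on all leukocytes, did not exceed 0.0326 CPM. The growth protocol also describes colon, and the colon gene Car1 had 0 counts in every library, while Hoxb13 was at most 0.0539 CPM. These are bulk samples, in which fewer cells of a type and less RNA per cell cannot be told apart.

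With all 11 libraries, none of the 10 markers passed the test of late against early passage, although 8 of the 10 estimates were positive. The 2 negative estimates were those of Rnf43 and Smoc2. Tnfrsf19, Ascl2 and Axin2 were low in 4 of 5 early libraries and high in the fifth, passage 4 of mouse_283. Lgr5, Lgr4, Znrf3 and Prom1 had their lowest value in passage 3 of mouse_283, while Smoc2 and Rnf43 varied least over the 11 libraries (SD 0.33 and 0.32 on the log2 scale). By edgeR's quasi-likelihood test with Benjamini-Hochberg adjustment over all tested genes, 0 of 10 markers were called in a background of 3.05% of genes, and adjusted p ran from 0.135 to 0.557. DESeq2 also called 0 of 10. At an unadjusted p under 0.05 there were 3 markers, Tnfrsf19, Lgr4 and Rnf43, against 23.6% of all genes. The median log2 fold change of the markers was 0.48, against -0.02 over all genes tested. No marker had early and late libraries that did not overlap, where 2.21% of genes lay wholly higher and 3.51% wholly lower in late passage.

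**Figure D1:**
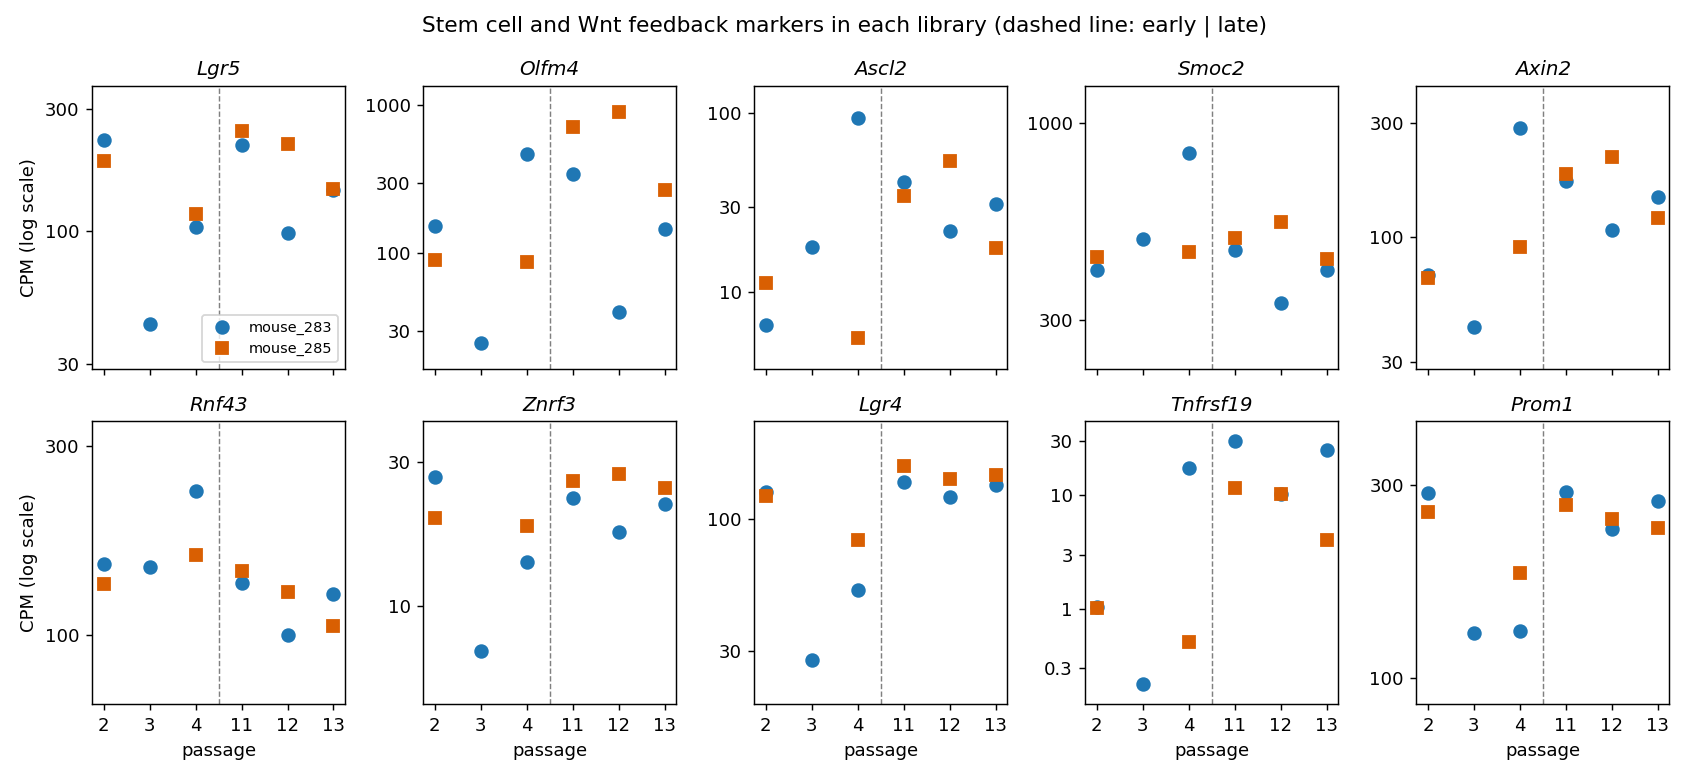
Normalised level of each marker in each of the 11 libraries, in CPM on a log axis that differs between panels, against passage number (categories, not to scale); circles are mouse_283, squares mouse_285, and the dashed line separates early from late passages. Tnfrsf19 is at or below 1.04 CPM in 4 of 5 early libraries and at 4.03 to 30.1 CPM in late ones, with the early library of passage 4 of mouse_283 at 17.6 CPM.

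Lgr5 (ENSMUSG00000020140.9) encodes the R-spondin receptor that marks the cycling crypt base stem cell. In mouse_283 it stood at 226 CPM at passage 2, 42.9 at passage 3 and 104 at passage 4, then at 217, 97.9 and 144 CPM at passages 11, 12 and 13. In mouse_285 it was at 187 and 117 CPM at passages 2 and 4, and at 246, 218 and 145 CPM at passages 11, 12 and 13. The early and late libraries overlapped throughout, and the passage 2 library of each animal lay among the late ones. The stage difference was 0.35 on the log2 scale (SE 0.36, 95% interval -0.42 to 1.13, adjusted p = 0.526 by edgeR). Without passages 3 and 4 of mouse_283 the means were 183 CPM early (n = 3) and 185 CPM late (n = 6), and the difference was 0.02 (95% interval -0.56 to 0.60, adjusted p = 0.977 by edgeR). That interval does not reach a doubling of Lgr5, but it comes from a fit that leaves out the lowest library, at 42.9 CPM. The interval with all 11 libraries includes a doubling, so none is excluded. Neither interval shows that the stages are alike.

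Lgr4 (ENSMUSG00000050199.7) encodes the second R-spondin receptor, which is present along the whole crypt and not only in stem cells. It was at 128, 27.6 and 52.5 CPM at passages 2, 3 and 4 of mouse_283 and at 141, 123 and 137 CPM at its passages 11, 12 and 13. The cultures of mouse_285 held 124 and 82.8 CPM early and 164, 144 and 150.3 CPM late. All late libraries were within 123 to 164 CPM, while the early ones spread from 27.6 to 128 CPM. Only the passage 2 library of each animal reached the late range. The log2 difference was 0.77 (SE 0.31, 95% interval 0.11 to 1.44, unadjusted p = 0.0266, adjusted p = 0.166 by edgeR), and 0.37 (adjusted p = 0.204) without passages 3 and 4 of mouse_283. Without passage 2 of mouse_283, whose removal leaves only passages 3 and 4 to stand for early culture in that animal, it was 1.12 (adjusted p = 0.0158), in a fit that called 34.7% of all genes. The third receptor of the family, Lgr6, had 0 counts in every library. The R-spondin genes Rspo1, Rspo2 and Rspo3 were at most 0.0566 CPM, and Rspo4 was between 0.549 and 2.57 CPM.

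Rnf43 (ENSMUSG00000034177.8) and Znrf3 (ENSMUSG00000041961.7) encode the ubiquitin ligases that R-spondins act against. Rnf43 stood at 151, 149 and 231 CPM at passages 2, 3 and 4 of mouse_283 and at 136, 100.1 and 127 CPM at passages 11, 12 and 13. Values in mouse_285 were 134 and 159 CPM early and 145, 128 and 105 CPM late. Every late library of mouse_283 thus lay below every early one, a separation that 9.46% of all genes had in the same direction, while in mouse_285 the stages overlapped. Its log2 difference was -0.40 (SE 0.18, 95% interval -0.78 to -0.02, unadjusted p = 0.0395, adjusted p = 0.192 by edgeR), -0.26 without passage 4 of mouse_283, -0.25 without passages 3 and 4 (adjusted p = 0.358) and -0.12 when GC content and transcript length were corrected for, where the adjusted p was 0.608.

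Znrf3 was lower per kilobase of transcript than Rnf43, as given below. It stood at 26.8, 7.06 and 13.97 CPM at passages 2, 3 and 4 of mouse_283 and at 22.9, 17.6 and 21.8 CPM at passages 11, 12 and 13. Its levels in mouse_285 were 19.6 and 18.4 CPM early and 26.0, 27.3 and 24.6 CPM late. The highest early library, passage 2 of mouse_283, lay above all late libraries but passage 12 of mouse_285. Late minus early it was 0.41 on the log2 scale (SE 0.27, adjusted p = 0.337 by edgeR) and 0.12 (SE 0.18, adjusted p = 0.741) without passages 3 and 4 of mouse_283.

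The Wnt targets Ascl2, Axin2 and Tnfrsf19 were called higher late, together, when passage 4 of mouse_283 was set aside, and the stretches before their starts are shown for that reason. The windows are from RefSeq on GRCm38.p6, a later build than the mm9 of the counts, and end at the base before the start. They were searched on both strands for CTTTGA, the core of the TCF/LEF binding motif, written TCAAAG on the other strand. Capitals mark a match.
Ascl2, chr7:142969265-142969514, minus strand: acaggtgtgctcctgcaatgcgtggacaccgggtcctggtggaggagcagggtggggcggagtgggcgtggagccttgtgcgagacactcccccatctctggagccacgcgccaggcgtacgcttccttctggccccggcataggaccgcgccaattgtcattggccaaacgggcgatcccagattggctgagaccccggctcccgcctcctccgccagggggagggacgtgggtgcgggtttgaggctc
Axin2, chr11:108920099-108920348, plus strand: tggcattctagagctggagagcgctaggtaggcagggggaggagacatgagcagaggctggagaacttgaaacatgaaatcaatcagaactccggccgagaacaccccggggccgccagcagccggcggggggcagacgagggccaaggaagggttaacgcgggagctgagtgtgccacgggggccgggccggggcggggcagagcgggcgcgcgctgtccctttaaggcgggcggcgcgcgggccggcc
Tnfrsf19, chr14:61037988-61038237, minus strand: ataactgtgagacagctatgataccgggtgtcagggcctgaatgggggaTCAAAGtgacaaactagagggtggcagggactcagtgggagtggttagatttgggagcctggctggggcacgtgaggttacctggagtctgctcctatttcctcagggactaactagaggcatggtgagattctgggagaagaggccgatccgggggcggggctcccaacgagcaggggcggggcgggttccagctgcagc
The window of Tnfrsf19 held 1 match, 201 bases before the start, and those of Ascl2 and Axin2 held none. A further start of Tnfrsf19, chr14:61046856-61047105, had no match in its window. Windows were given for 7 of the 10 markers, 10 in all, and 1 of these held a match, while 13.8% of 32851 promoter windows did. The markers not matched were Lgr5, Smoc2 and Znrf3. The windows of Ascl2 and Axin2 were 67.6% and 69.2% GC, above the median of 52.4% over all windows. A match is a description of these letters, and its absence says nothing on binding elsewhere.

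Ascl2 (ENSMUSG00000009248.5), a transcription factor that controls the stem cell programme of the crypt, was at 6.59 and 17.8 CPM at passages 2 and 3 of mouse_283 and at 94.6 CPM at its passage 4. At passages 11, 12 and 13 it stood at 41.1, 22.0 and 31.2 CPM. Levels in mouse_285 were 11.2 and 5.57 CPM early and 34.4, 54.0 and 17.6 CPM late. The highest library of all was thus an early one, and the remaining early libraries reached 17.8 CPM, just above the lowest late one. With all libraries the early mean was 27.1 ± 38.0 CPM (SD, n = 5) and the late mean 33.4 ± 13.2 CPM (SD, n = 6), with a log2 difference of 0.65 (SE 0.70, adjusted p = 0.557 by edgeR). Without passage 4 of mouse_283 it was called higher late, by 1.71 (SE 0.40, adjusted p = 0.0387 by edgeR). Without passages 3 and 4 it was called by 2.15 (SE 0.35, adjusted p = 0.00329), from 8.09 to 34.8 CPM.

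Axin2 (ENSMUSG00000000142.9) encodes a scaffold of the complex that degrades beta-catenin and is a standard readout of Wnt activity. It stood at 69.3, 42.2 and 284 CPM at passages 2, 3 and 4 of mouse_283 and at 172, 107 and 147 CPM at passages 11, 12 and 13. Its values in mouse_285 were 67.6 and 91.1 CPM early and 183, 216 and 119.9 CPM late. Apart from passage 4 of mouse_283, the highest of the 11, every late library was above every early one. With all libraries the log2 difference was 0.55 (SE 0.44, adjusted p = 0.423 by edgeR). It was called higher without passage 4 of mouse_283, by 1.23 (SE 0.23, adjusted p = 0.0165), and without passages 3 and 4, by 1.10 (SE 0.21, adjusted p = 0.00800), from 78.9 to 164 CPM.

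Tnfrsf19 (ENSMUSG00000060548.5), which encodes the TROY receptor of crypt base cells, had the lowest mean level per kilobase of the 10 and the widest range, 139 times between its lowest and highest library. At passages 2, 3 and 4 of mouse_283 it was at 1.04, 0.216 and 17.6 CPM, from 17, 4 and 488 counts, and at passages 11, 12 and 13 at 30.1, 10.2 and 25.2 CPM. In mouse_285 it was at 1.02 and 0.511 CPM early, from 18 and 10 counts, and at 11.7, 10.4 and 4.03 CPM late. All late libraries were at or above 4.03 CPM and 4 of 5 early libraries at or below 1.04 CPM, with passage 4 of mouse_283 in the late range. The log2 difference was 2.42 (SE 0.86, 95% interval 0.56 to 4.27, unadjusted p = 0.0148, adjusted p = 0.135 by edgeR). Tnfrsf19 was called higher late without passage 4 of mouse_283, by 4.29 (SE 0.58, adjusted p = 0.00395), and without passages 3 and 4, by 3.87 (SE 0.49, adjusted p = 0.000643), from 0.887 to 15.9 CPM.

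Olfm4 (ENSMUSG00000022026.5) encodes a secreted glycoprotein that is abundant in crypt base cells and is also controlled by Notch signalling. It was at 153, 24.9 and 466 CPM at passages 2, 3 and 4 of mouse_283 and at 343, 40.5 and 147 CPM at passages 11, 12 and 13, with no order by stage. In mouse_285 it was at 89.8 and 86.9 CPM early and at 712, 894 and 269 CPM late, so that each late library was above both early ones. The log2 difference over both animals was 0.97 (SE 0.89, 95% interval -0.95 to 2.88, adjusted p = 0.484 by edgeR), and 1.63 (95% interval 0.24 to 3.02, adjusted p = 0.174) without passages 3 and 4 of mouse_283. The lowest and highest of the 11 libraries differed 35.9-fold.

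Smoc2 (ENSMUSG00000023886.8), which encodes a secreted calcium-binding matrix protein, was at 407, 493 and 835 CPM at passages 2, 3 and 4 of mouse_283 and at 461, 334 and 407 CPM at passages 11, 12 and 13. In mouse_285 all 5 libraries lay between 437 and 546 CPM. Passage 4 of mouse_283 was the single high library. The log2 difference was -0.24 (SE 0.22, adjusted p = 0.479 by edgeR). Without passages 3 and 4 of mouse_283 it was 0.08 (95% interval -0.22 to 0.38, adjusted p = 0.784 by edgeR), with the sign turned.

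Prom1 (ENSMUSG00000029086.8) encodes the membrane glycoprotein CD133. It stood at 287, 129 and 130.2 CPM at passages 2, 3 and 4 of mouse_283 and at 288, 234 and 275 CPM at passages 11, 12 and 13. In mouse_285 it was at 258 and 182 CPM early and at 268, 247 and 234 CPM late. Late libraries lay within 234 to 288 CPM, and the early ones split into passage 2, inside that range, and the 3 libraries of passages 3 and 4, below it. The log2 difference was 0.38 (SE 0.22, adjusted p = 0.287 by edgeR), and 0.07 (95% interval -0.24 to 0.38) without passages 3 and 4 of mouse_283.

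In the fit without passage 4 of mouse_283 the markers called higher were thus Ascl2, Axin2 and Tnfrsf19, 3 of 10. All genes called higher made up 0.748% of 14039, and 0 markers were called lower. Passage 4 of mouse_283 held the highest early value of each of these 3 markers. Leaving it out took away the early value that stood against a rise, so these calls are no independent support for one. The fit without passages 3 and 4 leaves it out too. In the 10 libraries without passage 4 of mouse_283, Axin2 and Tnfrsf19 had late libraries wholly above early ones, as did 2.92% of genes. The fit without passages 3 and 4 called the same 3 markers, against 1.37% of 14630 genes called higher, and in these 9 libraries the late values of all 3 lay above the early ones, as did those of 4.54% of genes. In these 9 libraries passage 2 is the only early library of mouse_283. After the GC and length correction with all 11 libraries, edgeR called 0 of 10 in a background of 5.87%. In that fit 4 markers had 95% intervals that excluded 0, an unadjusted measure whose share over all genes was not computed there. Without the correction, 23.6% of all genes had an unadjusted p under 0.05 by edgeR, so the 4 cannot be set against a background. The nearest to the threshold were then Lgr4 (log2 difference 0.63, adjusted p = 0.0519 by edgeR) and Tnfrsf19 (2.38, adjusted p = 0.0853), while Ascl2 was at 1.14 (SE 0.59) and Axin2 at 0.83 (SE 0.39). Leaving out passage 2 of mouse_283 instead gave 3 other calls, Lgr4, Znrf3 (0.71, adjusted p = 0.0259) and Prom1 (0.60, adjusted p = 0.0311), with 34.7% of all genes called.

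**Figure D2:**
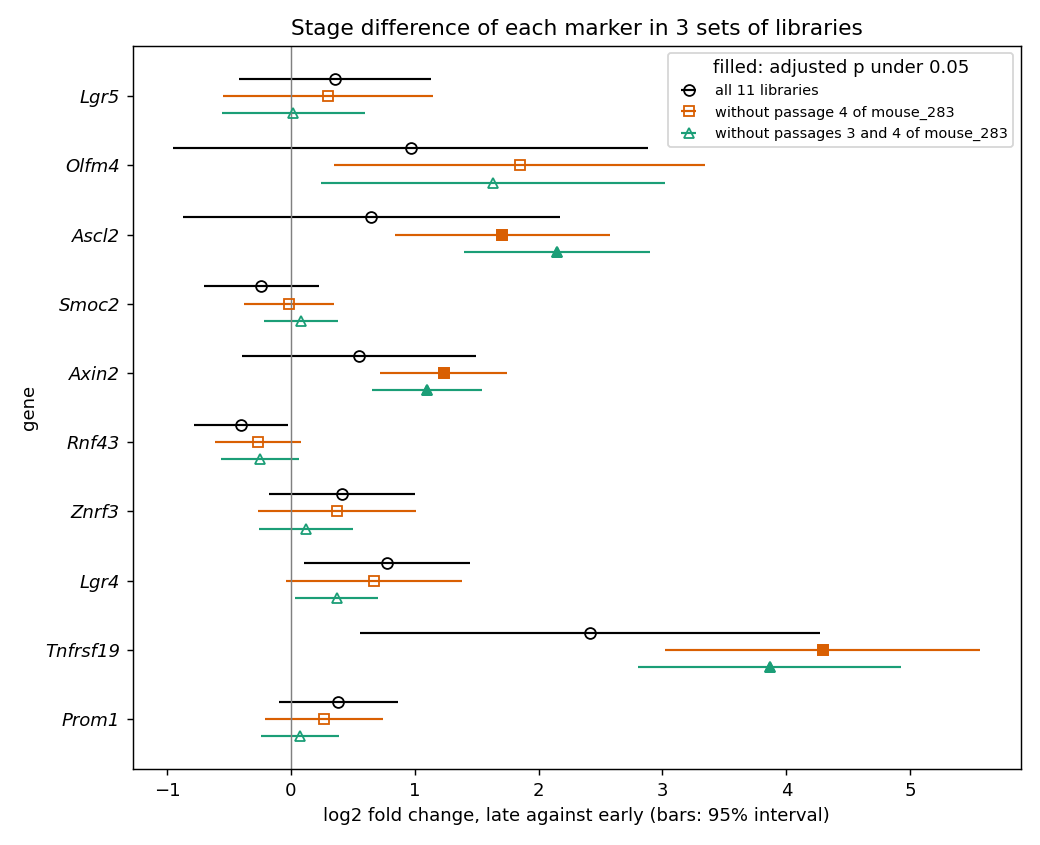
Log2 fold change of each marker, late against early, with its 95% interval, from edgeR fits on all 11 libraries (circles), without passage 4 of mouse_283 (squares) and without passages 3 and 4 of mouse_283 (triangles). Filled symbols, for Ascl2, Axin2 and Tnfrsf19 in the fits on fewer libraries, have an adjusted p under 0.05, and Lgr5 moves to 0.02 without passages 3 and 4.

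The stage difference was also taken within each animal, in a model that holds the interaction of stage and animal. In mouse_285 every marker but Rnf43 had a positive estimate, and 6 had late libraries wholly above early ones (Olfm4, Ascl2, Axin2, Znrf3, Lgr4 and Tnfrsf19), as did 18.2% of all genes. The largest were Tnfrsf19 (log2 difference 3.51, SE 1.41), Olfm4 (2.82, SE 1.10), Ascl2 (2.08, SE 0.92) and Axin2 (1.12, SE 0.64), and edgeR called 0 of 10 (adjusted p from 0.756 to 0.993) and 0% of all genes, with 3 markers at an unadjusted p under 0.05, as were 5.38% of genes. In mouse_283 the estimates for Olfm4 and Ascl2 were -0.28 (SE 0.87) and -0.34 (SE 0.75), and those for Tnfrsf19 and Lgr4 were 1.77 (SE 1.05) and 0.95 (SE 0.43). There too edgeR called 0 of 10 markers (adjusted p from 0.258 to 0.912), in a background of 1.42%, with Rnf43 and Lgr4 at an unadjusted p under 0.05, as were 18.8% of genes. Without passages 3 and 4, which leaves passage 2 as the only early library of mouse_283, its Lgr4 estimate was 0.07 (SE 0.22, adjusted p = 0.892) and that of Olfm4 0.22 (SE 0.80, adjusted p = 0.905), with the sign turned. The signs of Lgr5, Znrf3 and Prom1 turned too, from 0.30, 0.38 and 0.54 with all libraries to -0.55, -0.36 and -0.11, with adjusted p from 0.330 to 0.819. Without passage 2 instead, 6 of 10 markers were called within mouse_283, in a fit that called 54.8% of all genes there.

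The difference between the animals' stage effects was tested by the interaction term. It was 3.10 for Olfm4 (SE 1.37, unadjusted p = 0.0427, adjusted p = 0.990 by edgeR) and 2.41 for Ascl2 (SE 1.17, adjusted p = 0.990). No marker and no other gene passed, and Olfm4 was the 1 marker at an unadjusted p under 0.05, against 2.13% of genes. Without passages 3 and 4 of mouse_283, the interaction of Ascl2 was -0.18 (SE 0.69) and that of Olfm4 2.61 (SE 0.98, adjusted p = 0.219), in a background of 0.0342% called. Without passage 2 of mouse_283 the interaction was called for 3 of 10 markers, Ascl2, Lgr4 and Prom1, and for 16.5% of all genes. In the 9 libraries without passages 3 and 4 of mouse_283, Ascl2 and Tnfrsf19 were called higher late within mouse_285, by 2.08 and 3.53 (adjusted p = 0.0329 and 0.0148 by edgeR). Within mouse_283, with passage 2 as its only early library, their estimates were 2.26 and 4.39. Passage 4, left out there, held the highest early values of that animal, at 94.6 and 17.6 CPM. The estimates of mouse_283 are therefore no independent support for a rise. Axin2 was called in mouse_285 in the same fit (1.13, adjusted p = 0.0439 by edgeR) and had an estimate of 1.04 in mouse_283. The background called higher in mouse_285 in that fit was 0.595% of genes.

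**Figure D3:**
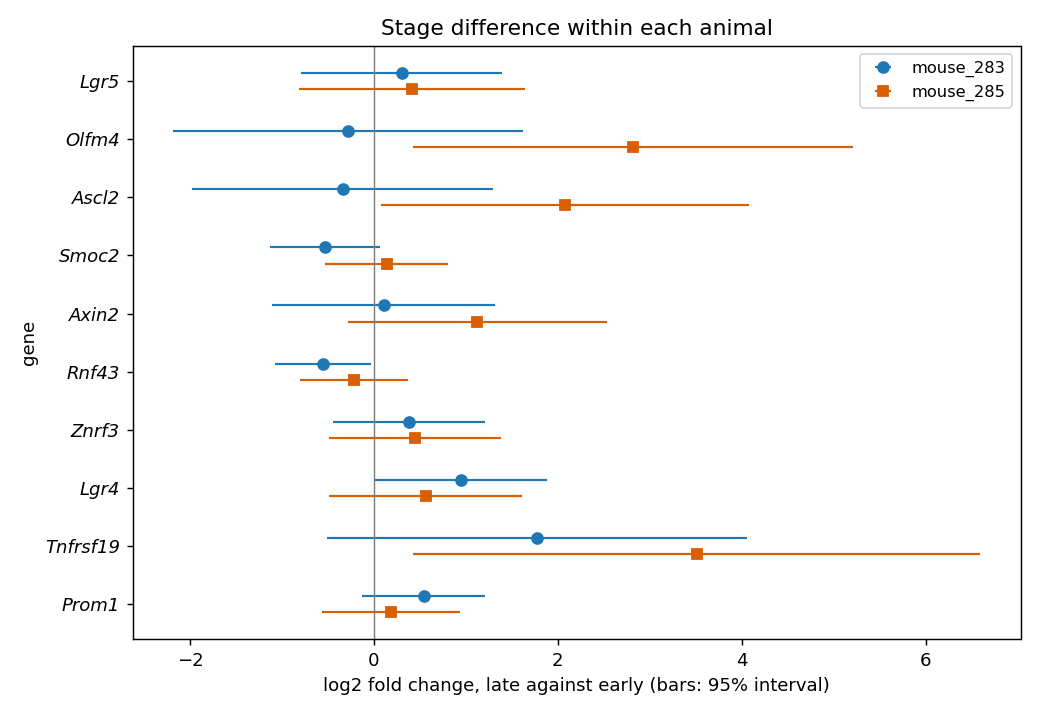
Log2 fold change of each marker, late against early, within mouse_283 (circles, 3 early and 3 late libraries) and mouse_285 (squares, 2 early and 3 late), with 95% intervals from the edgeR model with the interaction of stage and animal. The intervals of the animals overlap for all 10 markers, and the widest gap is that of Olfm4, at -0.28 and 2.82.

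Between the animals, with stage in the model, edgeR called 0 of 10 markers (adjusted p from 0.891 to 0.993) in a background of 0.0776% of genes, and no marker had libraries of the animals that did not overlap, where 0.162% of genes lay wholly higher and 0.353% wholly lower in mouse_285. Tnfrsf19 had the largest estimate, -1.97 for mouse_285 against mouse_283 (SE 0.85, unadjusted p = 0.0377, adjusted p = 0.891), with late means of 21.8 CPM in mouse_283 and 8.71 CPM in mouse_285. It was the 1 marker at an unadjusted p under 0.05, against 5.15% of genes. The estimate for Tnfrsf19 depended on passage 4 of mouse_283: without that library it was -0.87 (SE 0.49, adjusted p = 0.990 by edgeR), and without passages 3 and 4 -1.15 (SE 0.38, adjusted p = 0.241), where 0 of 10 markers and 0.731% of genes were called between the animals. Estimates for Smoc2, Rnf43, Prom1 and Axin2 ran from -0.16 to 0.07 on the log2 scale.

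Passage 4 of mouse_283 was the highest of the 11 libraries for Ascl2, Axin2, Smoc2 and Rnf43, and 9.09% of all genes had their highest value there. Passage 3 of the same animal was the lowest for 7 markers, Lgr5, Olfm4, Axin2, Znrf3, Lgr4, Tnfrsf19 and Prom1, against 23.1% of genes. After centring each marker on its mean, the median over the 10 was 0.78 in passage 4 and -1.47 in passage 3, while the other 9 libraries ranged from -0.32 to 0.63. Of the markers highest in passage 4, Ascl2, Rnf43 and Axin2 had the highest GC content of the 10, at 59.6%, 56.1% and 54.6% of the longest transcript, and Smoc2 had 48.6%. Olfm4, Lgr5, Prom1 and Lgr4, at 42.1% to 46.3% GC, were the lowest in GC, and all 4 were lowest in passage 3. So were Tnfrsf19, Znrf3 and Axin2, at 49.6%, 50.7% and 54.6% GC. Olfm4, the lowest of the 10 in GC, had passage 4 of mouse_283 at rank 3 of 11, at 466 CPM. The part of base composition in these values was not tested beyond the correction given above. In passage 4 of mouse_283 the summed Paneth cell markers (Lyz1, Defa24, Mmp7, Ang4, Itln1 and Defa17) were also the highest, at 2942 CPM against 870 to 2168 CPM elsewhere. The sum of 8 proliferation genes was 1012 CPM there, within the range of the other libraries, with 1 of the 8 at its highest in that library (Mcm2, 210.1 CPM) and 2 at their lowest, among them Mki67 (26.9 CPM). Their part in the marker levels was not tested.

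**Figure D4:**
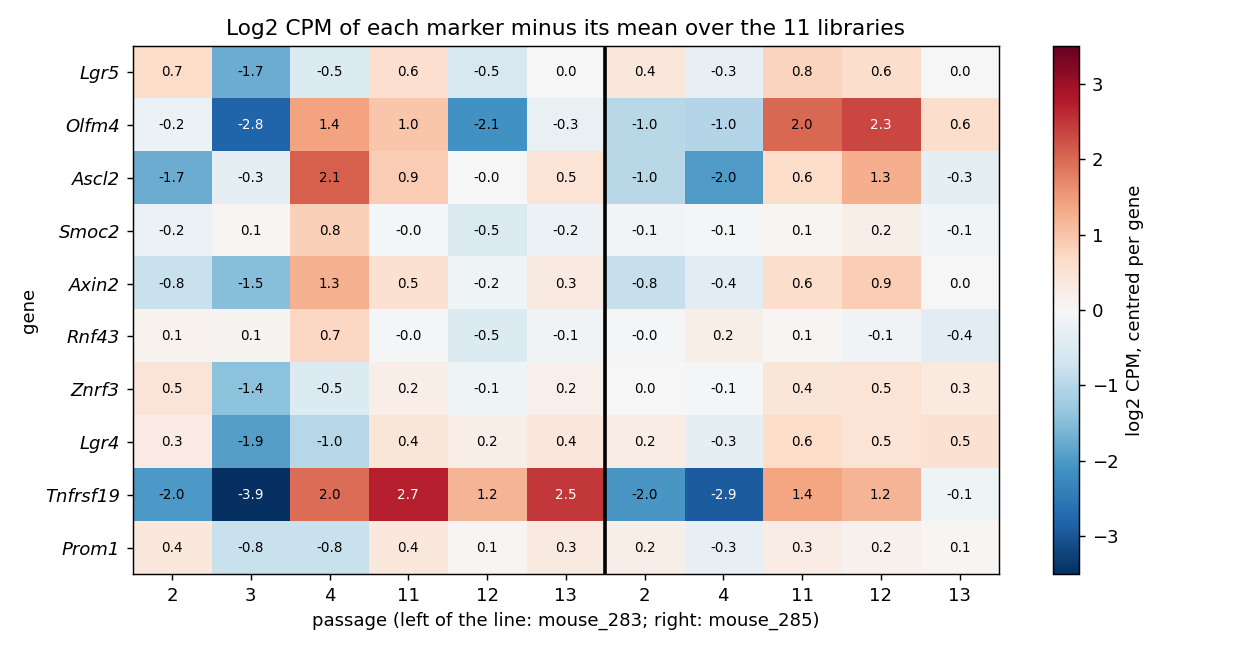
Log2 CPM of each marker minus its mean over the 11 libraries, with libraries in order of passage within mouse_283 (left of the line) and mouse_285 (right). The column of passage 3 of mouse_283 is lowest for 7 of 10 markers, and the column of passage 4 of mouse_283 is highest for Ascl2, Smoc2, Axin2 and Rnf43.

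The markers did not form a single pattern across the libraries. Likeness was measured as the root mean square difference of centred log2 CPM over the 11 libraries, which share depth and base composition effects. Smoc2 and Rnf43 were nearest to each other (0.19), as were Lgr5 and Znrf3 (0.28), while Lgr4 and Prom1 were each nearest to Znrf3 (0.29 each). Ascl2 and Olfm4 were nearest to Axin2, at 0.74 and 1.02, and Tnfrsf19 to Ascl2, at 1.48. The nearest marker was also ranked among 9680 genes of at least 5 CPM on average. It ranked 5 for Olfm4, 8 for Tnfrsf19, 17 for Lgr5, 21 for Ascl2, 37 for Smoc2 and 70 for Rnf43. For Axin2, Znrf3, Lgr4 and Prom1 it ranked 381, 563, 603 and 1562, so many other genes were nearer than any marker. Of these 9680 genes, those most like Lgr5 were Utrn, Prkacb and Trio, at 0.20, 0.22 and 0.25. The SD of Lgr5 itself was 0.74. Those most like Olfm4, whose SD was 1.65, were Pcdh8 and Tent5c, at 0.77 each, and the defensin gene Defa37, at 0.91.

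Levels can be compared between genes only per transcript length, here the longest transcript of a later annotation. In CPM per kilobase over the 11 libraries, Smoc2 was highest at 122 ± 32.5 (SD, n = 11), followed by Olfm4 at 105 ± 103 and Prom1 at 56.3 ± 14.2. Lgr5, Rnf43 and Axin2 came next at 33.1 ± 13.5, 33.0 ± 8.05 and 32.0 ± 17.1, then Lgr4 at 22.9 ± 8.51 and Ascl2 at 19.0 ± 16.2. Znrf3 and Tnfrsf19 were lowest at 3.26 ± 0.974 and 2.51 ± 2.56 CPM per kilobase. Prom1 was above Lgr5 in 11 of 11 libraries and Ascl2 above Znrf3 in 10 of 11. Every other pair of neighbours in this order changed places in at least 3 of 11 libraries, so their order did not exceed the spread between libraries.

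Other genes of the crypt base, from a list of 20 that holds none of the 10 markers, gave 0 calls among 19 tested, in the same background of 3.05%. Their median log2 difference was -0.14, and 9 were positive and 10 negative. The smallest p-values were those of the hyaluronan receptor gene Cd44, the ion transporter gene Slc12a2 and the zinc finger gene Zbtb38, with log2 differences of 1.12, 0.75 and 0.85 (adjusted p = 0.0716, 0.113 and 0.126 by edgeR). At passage 4 of mouse_283, 11 of the 19 had their highest library. When passages 3 and 4 of mouse_283 were left out, the median became 0.25 and 1 gene was called, the ephrin receptor gene Ephb3 (0.70), in a background of 4.76%. Of 6 genes linked to reserve or injury-related stem cells (Bmi1, Hopx, Tert, Clu, Anxa1 and Ly6a), 0 were called, with a median of 0.62. The smallest p-values among them were those of Anxa1, Ly6a and Bmi1, with log2 differences of 1.46, 0.91 and 1.00 (adjusted p = 0.123, 0.130 and 0.138).

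Of 31 further genes of the Wnt pathway, 25 were tested and 1 was called, the cyclin gene Ccnd1, higher late, a share near the 3.05% of all genes. Ccnd1 was at 49.6, 27.6 and 47.1 CPM at passages 2, 3 and 4 of mouse_283 and at 75.6, 70.5 and 101 CPM late, and at 42.1 and 31.0 CPM early and 61.8, 48.5 and 56.1 CPM late in mouse_285. Its means were 39.5 ± 9.77 CPM (SD, n = 5) and 68.9 ± 18.4 CPM (SD, n = 6), a log2 rise of 0.82 (SE 0.20, adjusted p = 0.0450 by edgeR). Leaving out passage 4 of mouse_285, or any 1 of the 6 late libraries, ended this call and left 0 of 25 called. For the transcription factor gene Myc the early mean was 67.6 ± 19.6 CPM (SD, n = 5) and the late mean 98.0 ± 8.97 CPM (SD, n = 6), with a log2 difference of 0.53 (adjusted p = 0.146 by edgeR). Every late library of Myc was above every early one, as for 2.21% of genes. The gap was narrow, from 87.6 CPM at passage 4 of mouse_283 to 88.1 CPM at passage 11 of mouse_285. The other genes with the smallest p-values were Wif1, which encodes a secreted inhibitor, at under 1 CPM in every library (log2 difference 1.62, adjusted p = 0.157), and the receptor gene Fzd1 (-0.84, adjusted p = 0.173). The median of the 25 was 0.17.

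Without passages 3 and 4 of mouse_283, 4 of the 25 Wnt genes were called higher, against 1.37% of all genes, and 0 lower: Ccnd1 (0.66), the Wnt antagonist gene Nkd1 (3.28), the Wnt target Sp5 (1.60) and the ligand gene Wnt3 (1.06), which Paneth cells express. In the same 9 libraries 3 of 6 Paneth markers were called higher too, as given below. With all libraries Nkd1, Sp5 and Wnt3 had log2 differences of 1.22, -0.08 and 0.25 and did not pass. Like Ascl2 and Axin2, these 3 genes had their highest library at passage 4 of mouse_283, at 24.1, 75.3 and 19.6 CPM, where 9 of the 25 were highest.

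Some markers of other cell types differed between early and late libraries. The sum of 9 enterocyte markers was 3973 to 5187 CPM in early and 2407 to 3319 CPM in late libraries. Called lower were 4 of the 9 (Anpep, Apoa1, Apoa4 and Slc5a1), in a background of 2.34% of genes. Of the 9 estimates, 6 were negative and 3 positive. The sum of 6 enteroendocrine markers was 497 to 657 CPM early and 717 to 1062 CPM late. Called higher were 2 of the 6 (Chgb and Neurod1), in a background of 0.706% of genes. The gain in this sum lay mostly in Chgb, with means of 224 CPM early and 640 CPM late. Of the 6 estimates, 3 were positive and 3 negative. The sum of 6 tuft cell markers was 17.5 to 23.1 CPM early and 5.48 to 10.7 CPM late, with 2 of 4 tested lower (Trpm5 and Avil). The sums of the goblet markers, at 3609 to 8414 CPM early and 2897 to 5201 CPM late, and of the Paneth markers, at 870 to 2942 and 1186 to 2168 CPM, overlapped between stages, as did those of 8 proliferation genes, at 924 to 1035 and 961 to 1245 CPM, and with all 11 libraries 0 members of these 3 lists were called. Without passages 3 and 4 of mouse_283 the Paneth sum was 870 to 1096 CPM early and 1186 to 2168 CPM late, with no overlap, and 3 of the 6 Paneth genes rose: the lysozyme gene Lyz1 by 1.15, Defa24 by 1.23 and Defa17 by 1.90 on the log2 scale (adjusted p = 0.00322, 0.00262 and 0.00411 by edgeR), with a median of 0.72 over the 6. The libraries left out, passages 3 and 4, held Paneth sums of 1574 and 2942 CPM, within and above the late range. Leaving them out took away these early values, so the separation and these calls are no independent support for a rise. The fit on these 9 libraries is the one in which Ascl2, Axin2, Tnfrsf19 and Wnt3 were called, and it called 1.37% of genes higher and 3.40% lower. It also called 5 of 9 enterocyte genes lower, 3 of 6 enteroendocrine genes higher and 2 of 4 tuft cell genes lower, and 0 goblet and 0 proliferation genes. Leukocyte markers summed to 9.96 to 22.3 CPM early and 7.55 to 13.8 CPM late, and those of stroma and endothelium to 2.49 to 5.34 and 1.21 to 3.10 CPM. The part of these shifts in the marker levels was not tested. The libraries were unstranded, and annotated genes on the opposite strand overlap 6 of the 10 markers (Lgr5, Smoc2, Axin2, Rnf43, Tnfrsf19 and Prom1), whose reads cannot be told apart by strand. The labels name no batch for sequencing or culture, so a batch cannot be told apart from stage.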

How the data were processed

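RNA was sequenced from 11 organoid libraries. The authors deposited unnormalised read counts per gene, each table giving them without regard to strand and for either strand. Trimmomatic (trimming), STAR (alignment) and build mm9 are named per the submitters' processing notes, while tool versions and the annotation release are not given in the sources used here. Strand columns split reads evenly (50.0% to 50.2% on the first strand), so the unstranded counts were used. Summary lines for unmapped (4.76% to 10.2%), multimapping (5.92% to 8.78%), unassigned (3.77% to 11.7%) and ambiguous reads (3.11% to 4.03%) were left out. Passage numbers follow the sample titles, and those in the names of the deposited tables are higher by 1. Over 55 pairs of libraries, chi-square per degree of freedom was at least 13.96, so none were counted as duplicates.

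Symbols were matched by Ensembl identifier for 32620 of 37310 genes. Counts were filtered with filterByExpr by stage and animal, TMM-normalised and tested two-sided in R 4.3.3 with edgeR 4.0.16 (quasi-likelihood F test, with limma 3.58.1), the animal in the model, Benjamini-Hochberg adjustment over 14172 genes and a threshold of 0.05. Standard errors are the log2 fold change divided by the square root of F, and log2 CPM used a prior count of 2. The animal term was kept because the titles name the animal. Libraries of the same animal had a median correlation of deviations across stages of 0.11, and those of different animals -0.14. Alternatives were DESeq2 1.42.0, its size factors, no low-count filter, no animal term, each library left out, passages 3 and 4 of mouse_283 left out, and offsets on GC content and transcript length (splines with 5 degrees of freedom, known for 13628 genes, 96.2%). The procedure was tested on simulated data. The markers, gene lists and alternatives were chosen with earlier results of these data known. Named were all 10 markers, the called genes and up to 3 with the smallest p in each further list described, and the 3 genes nearest in pattern to Lgr5 and to Olfm4. GC content, lengths and overlapping genes came from GENCODE M21 on a later build, so no coordinates of genes are given beyond the RefSeq windows. Ephb3, Nkd1, Sp5 and Wnt3 were named after their values in 9 libraries were seen. Mki67, Mcm2, Itgam, Cd68 and the called markers of other cell types were also named after their values were seen.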

Additional observations from a re-analysis of the deposited data

Results flagged for a closer look

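Smoc2 at passage 4 of mouse_283 was at 835 CPM, far from the other 4 early libraries, which lay between 407 and 493 CPM. On the log2 scale, its gap to the nearest was 0.733 of the whole early range. The check was run on 20 groups, the early and late libraries of each of the 10 markers, and chance flags about 1 in 20. The same library was also the highest of the 11 for Ascl2, Axin2 and Rnf43.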

How the results depend on the processing

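With 2 animals and 11 libraries, the calls depended on single early libraries. The count of markers called late against early, 0 with all libraries, was 3 without a low-count filter (Olfm4, Lgr4 and Tnfrsf19, where 7.74% of genes were called), 3 without passages 3 and 4 of mouse_283, and 0 to 3 when each library was left out (3 without passage 2 and 3 without passage 4 of mouse_283). Between the animals it was 1 without the filter (Tnfrsf19, 0.881% of genes called) and 0 to 0 with each library left out. For the interaction it was 2 without the filter (0.277% of genes) and 0 to 3 with each library left out, where the 3 were Ascl2, Lgr4 and Prom1 without passage 2 of mouse_283, with 16.5% of genes called. Within mouse_283 it was 2 without the filter (6.16% of genes) and 0 to 6 with each library left out (6 without passage 2, 4 higher and 2 lower, with 54.8% of genes called, and 1, Tnfrsf19, without passage 4, with 1.10%). Within mouse_285 it was 3 without the filter (0.485% of genes) and 3 without passages 3 and 4 of mouse_283. Other crypt base genes called numbered 4 with DESeq2, 5 without the filter, 1 without passages 3 and 4, 2 after the GC and length correction and 0 to 5 with each library left out (5 without passage 2 of mouse_283). Wnt pathway genes called, 1 with all libraries, numbered 2 without the filter, 4 without passages 3 and 4, 2 after the correction, 0 without the animal as a replicate block and 0 to 7 with each library left out (7 without passage 2 of mouse_283). For both lists, the shares of all genes called were 7.74% without the filter and 4.76% without passages 3 and 4. They were 5.87% after the correction and 34.7% without passage 2 of mouse_283. No share of all genes was computed for DESeq2. The animal block changed no call of a marker. Without the filter the fit kept 23493 genes. The sign turned for Smoc2 late against early without passages 3 and 4 (0.081). For mouse_285 against mouse_283 it turned without passages 3 and 4 for Ascl2 (0.23), Axin2 (0.27), Rnf43 (0.044) and Prom1 (-0.17), and after the correction for Rnf43 (0.043). In the same comparison Smoc2 was at -0.0078 with DESeq2's size factors, -0.0094 with DESeq2 and -0.026 without the filter. With single libraries of mouse_283 left out it was at -0.045, -0.0046, -0.091 and -0.029 (passages 2, 3, 12 and 13), and with passage 11 or 12 of mouse_285 left out at -0.028 and -0.061, in a range of -0.09 to 0.18. Likewise Axin2 turned to 0.37 without passage 4 of mouse_283 and 0.028 without passage 2 of mouse_285 (range -0.31 to 0.37), and Rnf43 to 0.027 without passage 4 of mouse_283 (range -0.16 to 0.03). Prom1 turned to -0.020 and -0.021 without passage 3 or 4 of mouse_283 and to -0.061 without passage 2 of mouse_285 (range -0.06 to 0.25). None of these values was called. The cause was not tested. Early Tnfrsf19 rests on 4 to 18 counts in 4 libraries, which limits its precision (SE 0.86), and Olfm4 had the largest standard error of the stage differences with all libraries (0.89).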
